A study of Mus musculus with 38 samples.

Results

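The data described here are the levels of 9 genes, of 54165 counted, that mark tissues lying next to the mouse brain regions that were dissected. The 4 choroid plexus genes are Ttr, Folr1, Kcnj13 and Kl. The other 5, the anterior pituitary genes, are Gh, Prl, Cga, Tshb and Pou1f1. Each member was found by its symbol, which matched 1 row of the count table. Bulk RNA sequencing was run on 38 libraries from 25 adult FVB/NJ mice, 13 of which gave a library of each tissue. Ube3a2X mice were homozygous for a Ube3a transgene, which adds 2 copies of the gene, and their wild-type (WT) littermates served as controls. The prefrontal cortex (PFC) was punched from coronal slices and gave 5 libraries in each sex and genotype, while the hypothalamus (Hypo) was pulled from the underside of the brain with tweezers and gave 4 WT and 5 Ube3a2X libraries in each sex. The question put to these genes was how much neighbouring tissue each dissection held and whether that amount was balanced between Ube3a2X and WT mice.

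The choroid plexus is the epithelium that hangs in the brain ventricles and secretes cerebrospinal fluid. Its cells make transthyretin (Ttr), a carrier of thyroid hormone and retinol, in very large amounts, and they also carry the folate receptor Folr1, the potassium channel Kcnj13 and klotho (Kl). The anterior pituitary hangs below the hypothalamus on a stalk and is often torn off when the brain is lifted out. Its somatotrophs make growth hormone (Gh), its lactotrophs prolactin (Prl), and its thyrotrophs and gonadotrophs the hormone subunits Tshb and Cga. Pou1f1 is the transcription factor that somatotrophs, lactotrophs and thyrotrophs share. A thin upper sheet of the gland, the pars tuberalis, stays attached to the median eminence and also makes Cga and Tshb. Kcnj13 and Kl are not restricted to the choroid plexus, Kl being made by some neurons as well.

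Libraries held 36887511 to 69142160 counted reads in PFC and 39048341 to 380819301 in Hypo. Hypo females did not overlap in depth between genotypes, with 39048341 to 69594579 reads in WT and 75633196 to 380819301 in Ube3a2X. Levels below are CPM, the reads of a gene per 1000000 counted reads of its library, unless another scale is named. The tissue labels matched their own markers, since 7 cortical genes summed to 1943 to 2388 CPM in PFC against 35.6 to 54.4 CPM in Hypo, and 9 hypothalamic genes to 487 to 2242 CPM in Hypo against 0.895 to 3.14 CPM in PFC. Ube3a was at 606 to 1848 CPM in the Ube3a2X libraries of PFC and at 178 to 248 CPM in the WT ones, without overlap. In Hypo it was at 810 to 1812 CPM in Ube3a2X and at 115 to 383 CPM in WT libraries. One library, Hypo WT female 471, stood apart with the lowest Ube3a level and the highest pituitary levels. The RNA integrity number (RIN) ran from 6.7 to 8.9 in PFC and from 8.8 to 9.3 in Hypo, apart from 1 Hypo library, WT male 423, at 6.8.

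In the GRCm38 build (GENCODE vM21) the pituitary genes lie at chr11:106300271-106301865 on the minus strand (Gh), chr13:27057570-27065205 on the plus strand (Prl), chr4:34893779-34907370 on the plus strand (Cga), chr3:102775465-102782718 on the minus strand (Tshb) and chr16:65520511-65535005 on the plus strand (Pou1f1). Values are sums over each gene's exons. Of the 9 members, 6 overlap a gene on the opposite strand: Kcnj13 overlaps Gigyf2, Tshb overlaps Tspan2, and Folr1, Cga, Prl and Pou1f1 overlap Anapc15, Platr9, Gm47888 and Gm49631. The library kit marks strand, but whether counting used it is not given in the sources used here, so a low count of these 6 genes may hold reads of the partner.

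Promoters are shown for the pituitary genes because Pou1f1 is both a member and the factor known to act at Prl, and because these genes moved together or apart among Hypo libraries as described below. The sequences are the 250 bases before the start site from RefSeq (GRCm38.p6), which held entries for 6 of the 9 genes. They come from chr13:27057320-27057569 on the plus strand (Prl), chr16:65520262-65520511 on the plus strand (Pou1f1, the first of its 2 entries), chr4:34893529-34893778 on the plus strand (Cga) and chr3:102782715-102782964 on the minus strand (Tshb). Capitals mark matches to TATNCAT on either strand, a core of the sites such POU factors bind.
Prl: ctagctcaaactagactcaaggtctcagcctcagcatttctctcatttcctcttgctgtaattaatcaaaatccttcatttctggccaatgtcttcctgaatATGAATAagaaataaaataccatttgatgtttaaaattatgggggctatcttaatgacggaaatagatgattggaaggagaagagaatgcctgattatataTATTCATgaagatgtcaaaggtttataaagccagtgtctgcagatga
Pou1f1: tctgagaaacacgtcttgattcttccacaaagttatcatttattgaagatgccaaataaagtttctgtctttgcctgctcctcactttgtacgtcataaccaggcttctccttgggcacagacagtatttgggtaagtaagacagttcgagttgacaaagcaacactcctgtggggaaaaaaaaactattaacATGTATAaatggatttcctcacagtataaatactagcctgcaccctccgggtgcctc
Cga: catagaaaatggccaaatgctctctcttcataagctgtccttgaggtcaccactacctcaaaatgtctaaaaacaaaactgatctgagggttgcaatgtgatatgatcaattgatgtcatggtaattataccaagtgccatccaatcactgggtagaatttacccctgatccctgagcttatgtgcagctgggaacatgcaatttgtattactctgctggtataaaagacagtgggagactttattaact
Tshb: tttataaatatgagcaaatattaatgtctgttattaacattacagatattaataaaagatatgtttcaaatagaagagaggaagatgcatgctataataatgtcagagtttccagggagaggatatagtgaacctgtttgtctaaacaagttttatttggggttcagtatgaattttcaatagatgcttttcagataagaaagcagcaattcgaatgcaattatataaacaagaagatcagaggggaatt
The Prl promoter held 2 matches, 148 and 47 bases before the start, and the Pou1f1 promoter 1, at 57 bases. Promoters of Cga, Tshb, Kcnj13 and Kl and the other Pou1f1 entry had none in this window. Over all 32851 promoters of this length, 7.92% held at least 1 match, so the matches are a description of these windows and not of binding.

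Transcripts of Gh, Prl and Cga were abundant in most Hypo libraries, and Gh and Prl spread more widely than the other members. Gh was at 5.32, 20.6, 0.0146 and 1156 CPM in the WT females (mice 262, 398, 410 and 471). It was at 63.1, 44.0, 14.9, 9.03 and 189 CPM in the Ube3a2X females (mice 272, 417, 420, 462 and 468). Gh therefore ran from 1 read to the highest level of all 18 Hypo libraries inside a single group of 4. Among males it was at 89.1, 412, 20.6 and 0.0160 CPM in WT (mice 245, 251, 403 and 423) and at 0, 18.2, 36.96, 10.6 and 214 CPM in Ube3a2X (mice 238, 253, 258, 267 and 404). The genotypes overlapped in both sexes. WT female 410, WT male 423 and Ube3a2X male 238 had 1, 1 and 0 Gh reads, and the other 15 of the 18 libraries had 370 or more. These 3 are called the libraries without Gh below, and the 15 the libraries with Gh. A count of 0 in the Ube3a2X male library allows a level of up to 0.0376 CPM, 3 reads of its total, for counting error only.

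Prl, the lactotroph hormone, was at 39.3, 115, 2.21 and 3872 CPM in WT females and at 557, 320, 86.7, 56.5 and 805 CPM in Ube3a2X females of Hypo, in the same order of mice. In males it was at 29.2, 145, 9.13 and 2.76 CPM in WT and at 0.138, 4.71, 12.3, 5.44 and 52.9 CPM in Ube3a2X. The highest Hypo library held 28111 times the Prl level of the lowest, the largest span of the members with reads in every library. The 3 libraries without Gh were also the lowest of their own group for Prl, yet still held 151, 173 and 11 Prl reads.

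**Figure D1:**
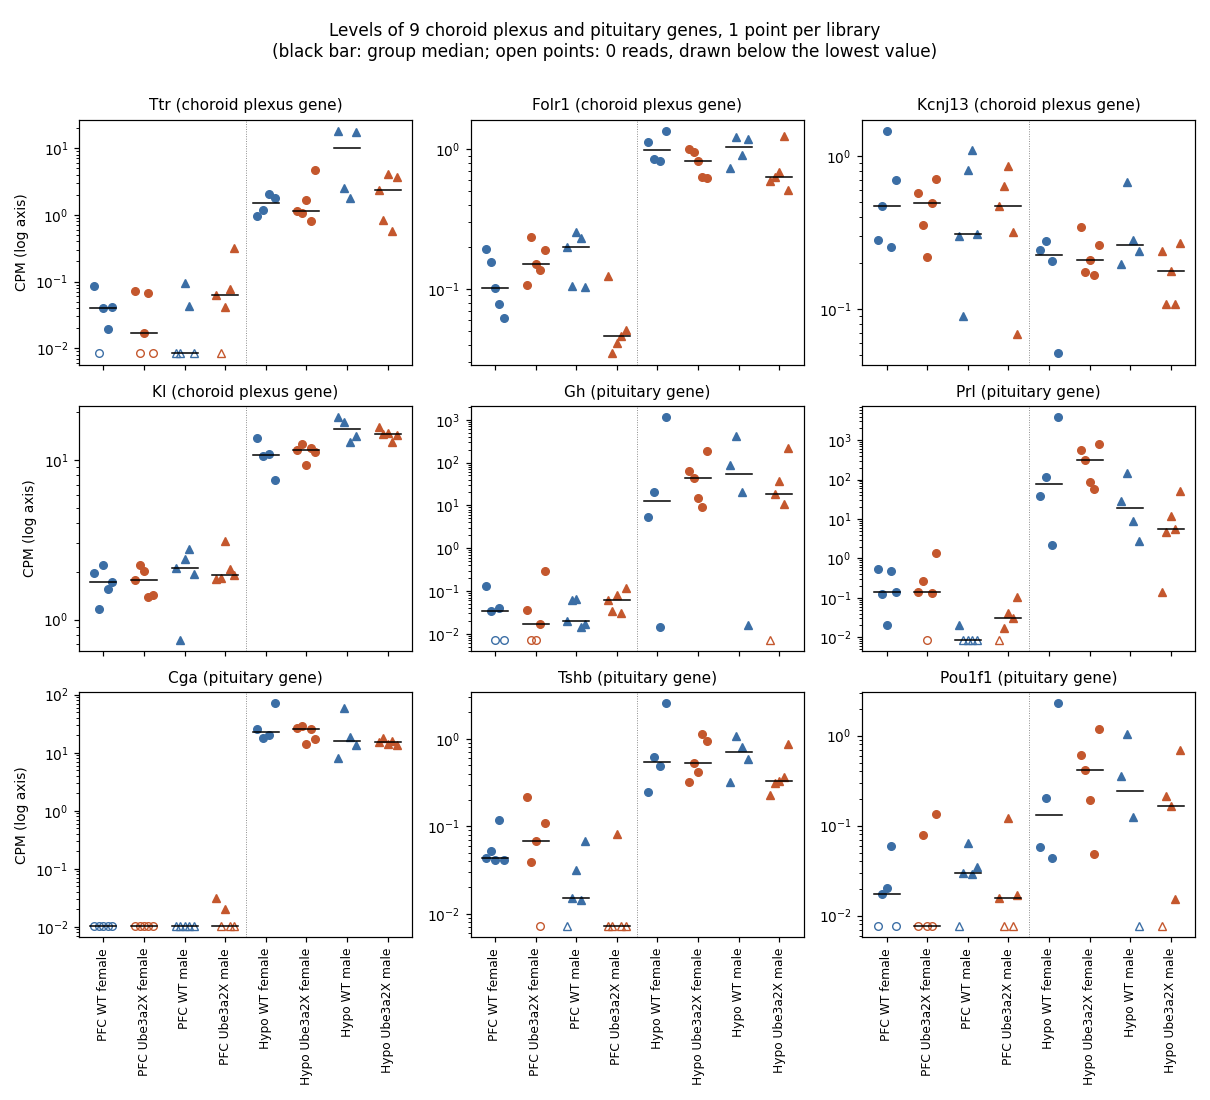
Level of each of the 9 genes in CPM (log axis) for every library, split by tissue, genotype and sex, with WT in blue, Ube3a2X in orange, females as circles, males as triangles and group medians as black bars. In Hypo, Gh runs from 0 to 1156 CPM and Prl from 0.138 to 3872 CPM, while Kl stays between 7.43 and 18.5 CPM.

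Pou1f1, the lineage factor, was low and moved with Gh. It was at 0.0575, 0.205, 0.0439 and 2.28 CPM in WT females, 0.608, 0.410, 0.194, 0.0479 and 1.18 CPM in Ube3a2X females, 0.360, 1.05, 0.125 and 0 CPM in WT males and 0, 0.216, 0.165, 0.0153 and 0.693 CPM in Ube3a2X males of Hypo. The 3 libraries without Gh had 3, 0 and 0 Pou1f1 reads. Over the 15 libraries with Gh, log2 levels of Gh and Pou1f1 gave Pearson r = 0.926 and Spearman rho = 0.918 (adjusted p = 0.000198 and 0.00032 over 16 relations, 100000 permutations), and r = 0.891 without the 2 libraries farthest from the median. Within sex r was 0.967 in 8 females and 0.924 in 7 males. In these bulk samples, more cells of a type and more RNA per cell cannot be told apart.

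Levels of Gh and Prl were correlated within each sex. In the 8 females with Gh, r was 0.989 and rho 1 (adjusted p = 0.000198 and 0.000397, exact permutation), and in the 7 such males r was 0.983 and rho 0.964 (adjusted p = 0.00238 and 0.0111, exact permutation). What separated the sexes was the proportion of the hormones. Female libraries with Gh held 3.35 to 8.82 Prl reads for each Gh read and male libraries 0.247 to 0.511, so that the 2 ranges did not meet. The 3 libraries without Gh fell outside both, at 101 (WT female 410), 116 (WT male 423) and 23.0 (Ube3a2X male 238) after 0.5 reads were added to each count. This ratio was chosen after the levels were seen. Over all 18 libraries its log2 value was lower in males by 2.93, or 7.605-fold (p = 0.0334, two-sided exact permutation of sex within genotype). Leaving out 1 library gave differences from -3.96 (without WT male 423) to -2.39 (without WT female 410). The exact permutation p then ran from 0.00181 to 0.0829 and was above 0.05 in 9 of 18 cases. With 5 reads added in place of 0.5 the difference was -3.20 (exact permutation p = 0.00295).

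**Figure D2:**
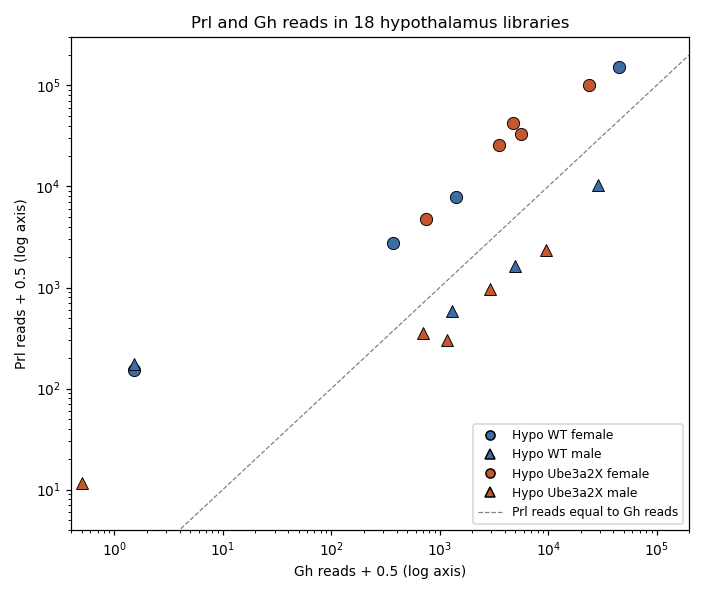
Prl reads against Gh reads in the 18 Hypo libraries, each with 0.5 added (both axes log), WT in blue and Ube3a2X in orange, females as circles and males as triangles, with a dashed line where the counts are equal. The 8 females with Gh lie above the line and the 7 males below it, and the 3 libraries with 0 or 1 Gh read lie at the far left.

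The ratio did not separate the genotypes. Ube3a2X libraries ran from 4.25 to 8.82 in females and WT ones with Gh from 3.35 to 7.39. In males with Gh the ranges were 0.247 to 0.511 in Ube3a2X and 0.328 to 0.444 in WT. The log2 ratio differed by -0.92 between Ube3a2X and WT over all 18 libraries (exact permutation p = 0.461), and without WT male 423 the difference was 0.12.

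Cga and Tshb did not share the near absence of Gh in any library. Cga, the common subunit of thyroid-stimulating hormone and the gonadotropins, was at 25.9, 17.95, 20.3 and 70.6 CPM in WT females, 27.1, 29.0, 14.0, 25.3 and 17.1 CPM in Ube3a2X females, 8.19, 58.0, 18.7 and 13.6 CPM in WT males and 15.4, 17.7, 14.4, 15.9 and 13.4 CPM in Ube3a2X males of Hypo. The 3 libraries with 0 or 1 Gh read sat at 20.3, 13.6 and 15.4 CPM, within the range of the others. The highest level was 8.62 times the lowest, and the Ube3a2X males were the most even group. The 2 libraries richest in Gh, WT female 471 and WT male 251, were also the 2 richest in Cga.

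Tshb, the thyrotroph subunit, was far lower, from 0.225 to 2.54 CPM in Hypo with the highest level again in WT female 471. The libraries without Gh held 33, 37 and 18 Tshb reads. Over the 15 libraries with Gh, Tshb gave r = 0.646 and rho = 0.457 with Gh (adjusted p = 0.0292 and 0.203, permutation), and r fell to 0.299 without the 2 libraries farthest from the median, so the relation rests on those. Cga gave r = 0.433 and rho = 0.150 with Gh (adjusted p = 0.169 and 0.632, permutation), and r = -0.377 without the 2 farthest. Cga and Tshb gave r = 0.579 and rho = 0.292 with each other over 18 libraries (adjusted p = 0.0333 and 0.379, permutation), with r = 0.291 without the 2 farthest. Of the pars tuberalis list, the melatonin receptor Mtnr1a (0.307 to 1.20 CPM) and the peptide Nmu (0.188 to 1.38 CPM) had reads in all 18 Hypo libraries. Eya3 of the same list was at 19.0 to 37.5 CPM in Hypo and at 28.1 to 39.3 CPM in PFC, ranges that overlapped.

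In the same build the choroid plexus genes lie at chr18:20665280-20674321 on the plus strand (Ttr), chr7:101858331-101870788 on the minus strand (Folr1), chr1:87386363-87394729 on the minus strand (Kcnj13) and chr5:150952607-150993817 on the plus strand (Kl). Among them Ttr varied most in Hypo, with the highest library at 32.1 times the lowest, against 13.3 for Kcnj13, 2.64 for Folr1 and 2.49 for Kl. Ttr was at 0.977, 1.17, 2.08 and 1.79 CPM in WT females and at 1.12, 1.07, 1.68, 0.814 and 4.62 CPM in Ube3a2X females. In males it was at 18.2, 2.56, 1.80 and 17.4 CPM in WT and at 2.37, 0.834, 4.14, 0.567 and 3.73 CPM in Ube3a2X. The 2 high libraries, WT males 245 and 423, stood above every other, and the remaining 16 lay between 0.567 and 4.62 CPM. The other markers of the choroid list differed widely in level. At the low end, Kcne2 was at 0 to 0.216 CPM in Hypo, with 12 reads in WT male 245 (the highest level) and 5 in WT male 423. Slc4a5 was at 0.0306 to 0.252 CPM, with WT male 245 at 0.252 CPM and Ube3a2X male 238 close to it at 0.250 CPM. Otx2, at 0.694 to 2.24 CPM, was second lowest in WT male 245 at 0.738 CPM. Steap1 was at 0.0512 to 0.192 CPM. Means over the 18 libraries were 0.850 CPM for Cldn2, 1.16 for Tmem72, 1.28 for Sostdc1, 1.56 for Otx2, 3.26 for F5, 4.23 for Calml4, 39.1 for Clic6 and 244.2 for Enpp2, beside 3.72 for Ttr. The whole list of 20 choroid plexus genes summed to 275 to 448 CPM in Hypo, most of it from Enpp2, Prlr and Clic6. Oligodendrocytes also make Enpp2 and hypothalamic neurons Prlr. RIN was 9.0 in WT male 245 and 6.8 in WT male 423, and over the 18 libraries RIN gave r = -0.471 and rho = 0.077 with Ttr (adjusted p = 0.165 and 0.758, permutation), with r = 0.099 without the 2 farthest.

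No relation of Folr1, Kcnj13 or Kl with Ttr passed the threshold among the 18 Hypo libraries. Pearson r with Ttr was -0.143, 0.225 and 0.384 and rho -0.257, 0.340 and 0.368 (adjusted p 0.170 to 0.573 for r and 0.269 to 0.379 for rho, permutation). Over the 15 libraries with Gh, Ttr gave r = 0.511 and rho = 0.693 with Gh (adjusted p = 0.102 and 0.0177, permutation), and r = 0.690 without the 2 farthest. The 3 libraries with 0 or 1 Gh read were left out of that relation and went against it, with Ttr at 2.08, 17.4 and 2.37 CPM, all above the Hypo median of 1.80 CPM. Folr1 lay between 0.514 and 1.36 CPM, Kcnj13 between 0.0512 and 0.680 CPM, and Kl between 7.43 and 18.5 CPM. WT males 245 and 423 lay inside the Folr1 and Kcnj13 ranges, at 0.738 and 1.18 CPM for the former and at 0.198 and 0.239 CPM for the latter. For Kl, WT male 245 was the highest of the 18 libraries at 18.5 CPM and WT male 423 was at 14.0 CPM. Per length, the order of the median levels in Hypo was Prl (32.7 RPKM, which is CPM per kilobase of exon), Gh (23.9), Cga (18.7), Ttr (1.52), Kl (1.39), Folr1 (0.364), Kcnj13 (0.176), Tshb (0.112) and Pou1f1 (0.0513). Neighbours in that order overlapped in range, with the exception of Kl, whose lowest library was at 0.796 RPKM, and Folr1, whose highest was at 0.591 RPKM.

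PFC libraries held little of any member except Kl (0.749 to 3.10 CPM) and Kcnj13, and Folr1 was at 0.0346 to 0.255 CPM. Cga had 3 reads in all 20 libraries together, with 18 at 0. Ttr had 57 reads in all, 7 libraries at 0 and a highest level of 0.324 CPM in Ube3a2X male 402. Pou1f1 did not pass 6 reads in any PFC library, Tshb did not pass 12 and Gh did not pass 11. Prl was the exception among the hormones, with 51 reads (1.38 CPM) in Ube3a2X female 468, 25 each in WT females 259 and 397, and 14 in Ube3a2X female 417. Males held 0 to 6 Prl reads. Female 468 also had the highest Gh count in PFC, 11 reads, and the second highest Prl level among Hypo libraries.

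In the 13 mice with both tissues, the Prl level in PFC was compared with that in Hypo. Over these mice r was 0.644 and rho 0.564 (adjusted p = 0.0449 and 0.128, permutation), and r was 0.501 without the 2 mice farthest from the median. Within sex r was 0.645 in 6 females. The 7 males held 0 to 2 Prl reads in PFC, under the floor of 3 reads, so their r of 0.120 cannot show whether a relation was present, and the pooled value rests on the females and on the difference between the sexes.

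Kcnj13 was the only member with a higher median in PFC (0.469 CPM) than in Hypo (0.224 CPM). It was at 0.281, 0.470, 1.47, 0.255 and 0.699 CPM in WT females (mice 259, 262, 395, 397 and 93) and at 0.574, 0.353, 0.218, 0.496 and 0.705 CPM in Ube3a2X females (mice 272, 417, 420, 462 and 468). In males it was at 0.299, 0.0899, 0.814, 1.10 and 0.309 CPM in WT (mice 245, 251, 256, 266 and 403) and at 0.468, 0.640, 0.863, 0.320 and 0.0682 CPM in Ube3a2X (mice 238, 253, 258, 267 and 402). These levels moved with 7 genes of the meninges, the membranes over the cortex, which include the collagens Col1a1 and Col1a2, the proteoglycan genes Dcn, Lum and Ogn and the transporters Slc22a6 and Slc6a13. Their sum ran from 9.96 CPM in WT male 251 to 84.1 CPM in WT female 395, which were also the second lowest and the highest library for Kcnj13. Over 20 libraries r was 0.813 and rho 0.726 (adjusted p = 0.00032 and 0.00208, permutation), with r = 0.698 without the 2 farthest, 0.605 in 10 females and 0.886 in 10 males. In Hypo the same relation gave r = 0.278 (adjusted p = 0.338, permutation), and Folr1 in PFC gave r = 0.138 with the meninges sum (adjusted p = 0.573, permutation). WT male 251 was also the lowest PFC library for Kl, at 0.749 CPM. The highest for Kl, Ube3a2X male 258, was at 3.10 CPM with a meninges sum of 75.5 CPM, and WT female 395 was at 2.20 CPM. The relation of Kl with the meninges sum was not tested. RIN gave r = 0.242 with Kcnj13 in PFC (adjusted p = 0.376, permutation). Kcnj13 overlaps Gigyf2 on the other strand, and the part of meninges in the Kcnj13 level was not tested.

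**Figure D3:**
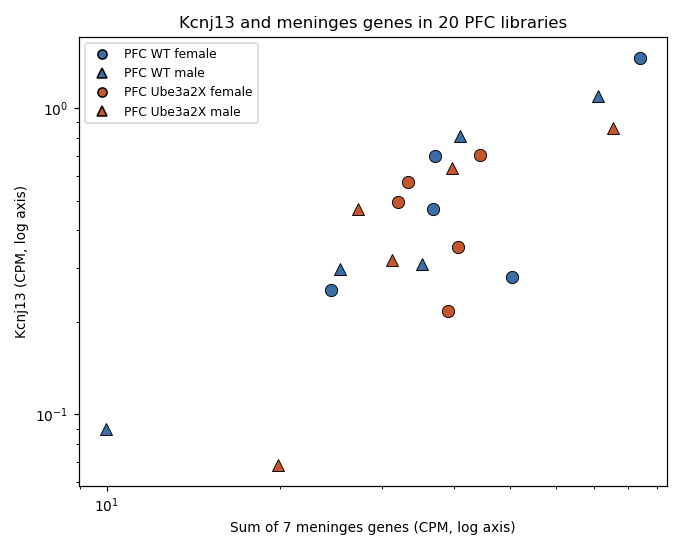
Kcnj13 level against the summed level of 7 meninges genes in the 20 PFC libraries (CPM, both axes log), WT in blue and Ube3a2X in orange, females as circles and males as triangles. The libraries run from WT male 251 at 9.96 CPM of meninges genes to WT female 395 at 84.1 CPM, with Kcnj13 between 0.0682 and 1.47 CPM.

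The test of tissue called 7 of the 9 genes (edgeR quasi-likelihood test, Benjamini-Hochberg adjusted p under 0.05), where 62.4% of all 22909 genes tested were called. Higher in Hypo were 6, against 32.2% of all genes, and 1 was lower, against 30.2%. Of the 9, Cga, Pou1f1, Ttr, Gh and Tshb reached 10 reads in 0 or 1 PFC library and so passed the filter only through Hypo, and 3 of the 6 (Ttr, Cga and Tshb) are among them, so these counts are a description. On the log2 scale the differences were 6.22 (SE 0.58) for Ttr, 2.67 (SE 0.25) for Folr1, 2.48 (SE 0.16) for Kl, 8.15 (SE 1.44) for Prl and 3.45 (SE 0.55) for Tshb. Cga was called as well, but its near absence in PFC makes its fitted 12.2 no bound. Kcnj13 was lower in Hypo by 1.92 (SE 0.43). Gh, at 5.77 (SE 2.78, edgeR adjusted p = 0.0719), and Pou1f1, at -0.08 (SE 0.54), were not called in this fit, which carried RIN as a covariate although RIN and tissue were largely confounded. Without RIN all 9 were called, with Gh at 10.84 and Pou1f1 at 3.44. When the mouse was used as a block in the 26 libraries of the 13 mice, 6 members were called, where 34.2% of genes were called. Gh was then at 10.74 (edgeR adjusted p = 3.69e-05), while Kcnj13 at -0.51 (edgeR adjusted p = 0.709) and Tshb at 3.59 (edgeR adjusted p = 0.0596) were not called. The same 26 libraries without the block, an alternative chosen after seeing the data, gave 8 called members where 48.6% of genes were called, with Gh at 7.73 (edgeR adjusted p = 0.0367), Kcnj13 at -1.31 (edgeR adjusted p = 0.0468) and Tshb at 3.16 (edgeR adjusted p = 0.0213). Leaving out any 1 of the 4 Hypo WT females brought Gh past the threshold. Of the fuller lists, 14 of 19 choroid plexus genes tested were higher in Hypo and 2 lower (median log2 difference 2.55), as were 12 and 1 of 16 pituitary genes (median 6.88), beside a median of 0.03 over all genes. Only 13 of these choroid plexus genes and 3 of these pituitary genes passed the filter within PFC, and the others were tested only through their reads in Hypo, so these counts and medians are a description too.

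No member was called for genotype in either tissue. In PFC 4 of the 9 passed the filter on low counts and none was called by edgeR, where 0.00982% of all genes were called (2 of 20359). In Hypo all 9 passed and none was called, where 0.00455% were called (1 of 21980). At an unadjusted p under 0.05 the count was 0 of 4 in PFC, where 11.8% of all genes were, and 1 of 9 in Hypo, where 5.4% were. That gene was Kcnj13, which was at -0.76 on the log2 scale (SE 0.30, edgeR adjusted p = 0.853). It moved on leaving out 1 library between -0.96 (without WT male 245) and -0.39 (without WT male 251), and without the latter it was no longer under 0.05. DESeq2 and limma-voom called no member in either tissue.

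For the pituitary hormones in Hypo that result came with wide limits. Gh differed by 0.25 on the log2 scale (SE 1.44, 95% confidence interval -2.91 to 3.41) and Prl by 0.19 (SE 1.16, -2.35 to 2.74). Changes of several fold in either direction lie within these intervals. With RIN as the only covariate the same differences were -1.29 for Gh, -1.63 for Prl and -0.75 for Pou1f1, against 0.42 for Pou1f1 with surrogate variables, so the sign depended on the covariates. The first surrogate variable correlated with these 3 genes at an absolute Pearson r of 0.442, 0.586 and 0.504 over 18 libraries, and with Kl at 0.729. Cga differed by -0.35 (SE 0.37) and Tshb by -0.0026 (SE 0.35), and with RIN alone by -0.74 and -0.70 (edgeR adjusted p = 0.624 for both). With RIN alone all 5 pituitary genes thus had a negative sign, and none was called. With RIN and surrogate variables, leaving out 1 library moved Cga between -0.61 and 0.26 and Tshb between -0.25 and 0.21, so neither sign held. Among the choroid plexus genes in Hypo, Ttr differed by -0.70 (SE 0.70, and by 0.33 without WT male 245), Folr1 by -0.22 (SE 0.19) and Kl by -0.14 (SE 0.07, 95% confidence interval -0.29 to 0.02), and with RIN alone Folr1 was at -0.38, Kcnj13 at -0.48 and Kl at -0.0296. With 1 library left out, Folr1 lay between -0.39 (without Ube3a2X male 267) and -0.10 (without WT female 262) and Kl between -0.20 (without WT male 403) and -0.0821 (without WT male 245). In PFC, Folr1 differed by -0.38 (SE 0.35), Kcnj13 by -0.17 (SE 0.48), Kl by 0.08 (SE 0.19) and Prl by 1.06 (SE 0.87). In the 16 leave-one-out fits in which each was still tested, Folr1 ranged from -0.71 (without Ube3a2X male 238) to -0.27 (without WT female 259) and Prl from 0.26 (without Ube3a2X male 402) to 1.67 (without WT male 245).

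**Figure D4:**
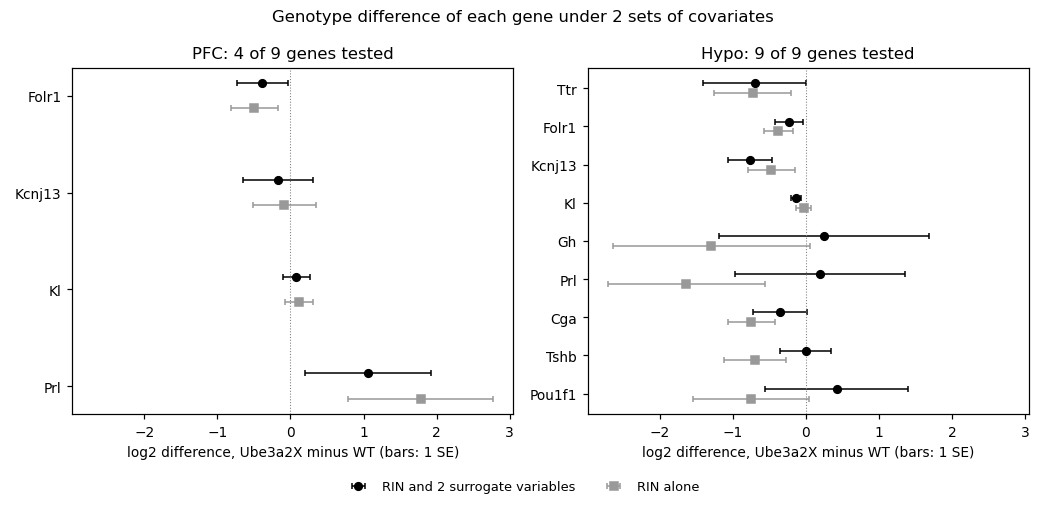
Log2 difference between Ube3a2X and WT for each tested gene in PFC and Hypo (points, with bars of 1 SE) from edgeR with RIN and 2 surrogate variables (black) or RIN alone (grey). Gh, Prl and Pou1f1 in Hypo lie at 0.25, 0.19 and 0.42 in black and at -1.29, -1.63 and -0.75 in grey.

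The level per library was also compared with no covariate, by an exact permutation of genotype within sex on log2 CPM, which gave 18 tests over the 9 genes and 2 tissues. One had a raw p under 0.05. Folr1 in Hypo was at 1.14, 0.850, 0.820 and 1.36 CPM in WT females and 1.005, 0.957, 0.822, 0.634 and 0.621 CPM in Ube3a2X females. It was at 0.738, 1.22, 0.910 and 1.18 CPM in WT males and 0.589, 0.633, 0.686, 1.24 and 0.514 CPM in Ube3a2X males. The genotypes overlapped in both sexes, and the mean was lower in Ube3a2X by 0.42 on the log2 scale (exact permutation p = 0.0300, not adjusted for the 18 tests). Leaving out 1 library gave p from 0.00465 to 0.0641 and lost the call in 6 of 18 cases, those without Ube3a2X males 238 or 404, WT females 262 or 471, or WT males 251 or 423. The other 17 tests gave exact permutation p from 0.175 to 0.973. In PFC the median library held 0 to 2 reads of Ttr, Gh, Prl, Cga, Tshb and Pou1f1, under the floor of 3 reads, and Cga had 3 reads over all 20 libraries, so these 6 tests are no measure of the balance between genotypes.

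The test of sex called 1 member in each tissue. In PFC it was Prl, where 0.138% of genes were called (28 of 20359), lower in males by 4.55 on the log2 scale (SE 0.86, edgeR adjusted p = 0.0331). The 10 female libraries held 25, 7, 1, 25 and 7 Prl reads in WT and 8, 14, 0, 8 and 51 in Ube3a2X, and the males 1, 0, 0, 0 and 0 in WT and 0, 1, 2, 2 and 6 in Ube3a2X. The sexes overlapped at the low end. The 4 libraries that reached the 10 reads of the filter were all female, so Prl was tested only through the sex in which it was high, and the call describes these counts rather than giving separate support. With RIN alone the adjusted p was 0.192 and with limma-voom 0.117, 11 fits that left out 1 library lost the call (edgeR adjusted p up to 0.170), and 4 others no longer tested Prl. In Hypo, Prl was at -2.20 for males against females (SE 1.09, edgeR adjusted p = 0.381) and was not called. Gh (2.01, SE 1.32) and Ttr (1.41, SE 0.71) were not called either. Leaving out 1 library gave -3.43 to -0.98 for Prl and 0.48 to 3.49 for Gh, with WT male 251 and WT female 398 at the ends of both, and 0.62 (without WT male 245) to 1.75 (without Ube3a2X female 468) for Ttr.

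Kl was the member called for sex in Hypo, where 1.38% of genes were called (304 of 21980). It was at 13.7, 10.6, 10.9 and 7.43 CPM in WT females, 11.4, 12.6, 9.34, 11.8 and 11.3 CPM in Ube3a2X females, 18.5, 17.2, 12.99 and 14.0 CPM in WT males and 15.9, 14.4, 14.8, 12.9 and 14.2 CPM in Ube3a2X males. The sexes overlapped only where WT female 262 lay above the 2 lowest males. The level was higher in males by 0.37 on the log2 scale (SE 0.07, edgeR adjusted p = 0.0118). With RIN alone it was 0.46 (edgeR adjusted p = 0.0863), and the call was lost without WT males 245 or 251, Ube3a2X male 258, or WT females 398 or 410 (edgeR adjusted p 0.0545 to 0.0756), and the difference lay between 0.32 and 0.43 over all 18 fits that left out 1 library. Of the pituitary list in Hypo, the corticotroph factor Tbx19 (0.55, edgeR adjusted p = 0.0195) and the gonadotroph factor Nr5a1 (0.68, edgeR adjusted p = 0.0361), which hypothalamic neurons also make, were called higher in males.

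The interaction asks whether the genotype difference was the same in both sexes, and no member was called in either tissue, where 0% of genes were called by edgeR. Over all genes 3588 in PFC (17.6%) and 2318 in Hypo (10.5%) had an unadjusted p under 0.05. DESeq2 called 752 and 8 genes and limma-voom 0 and 4, none of them a member. An unadjusted edgeR p under 0.05 was reached by 3 members, given here as the log2 difference between Ube3a2X and WT in males minus that in females. Folr1 in PFC was at -2.24 (SE 0.69, edgeR adjusted p = 0.144). It was at 0.195, 0.157, 0.102, 0.0786 and 0.0617 CPM in WT females, 0.108, 0.235, 0.151, 0.137 and 0.190 CPM in Ube3a2X females, 0.200, 0.105, 0.255, 0.231 and 0.103 CPM in WT males and 0.125, 0.0346, 0.0411, 0.0458 and 0.0511 CPM in Ube3a2X males. Of the 5 Ube3a2X males, 4 lay below every other PFC library, with 2 or 3 reads each. The 4 libraries with 10 or more Folr1 reads were WT males 245, 256 and 266 and Ube3a2X female 417, so the gene passed the filter only through the groups in which it was high. Kcnj13 in Hypo was at -1.42 (SE 0.56, edgeR adjusted p = 0.450) and Prl in Hypo at -4.53 (SE 2.04, edgeR adjusted p = 0.469). Leaving out 1 library moved the latter between -7.00 (without WT female 398) and -2.29 (without WT male 251).

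Summed levels of the marker lists were set side by side by genotype. The 20 choroid plexus genes summed to 275 to 422 CPM in WT females and 402 to 448 CPM in Ube3a2X females of Hypo, and to 391 to 421 CPM in WT males and 377 to 430 CPM in Ube3a2X males. The 18 pituitary genes summed to 124 to 5252 CPM in WT females and 186 to 1091 CPM in Ube3a2X females, and to 98.3 to 839 CPM in WT males and 81.6 to 392 CPM in Ube3a2X males. The highest library was WT in each sex, while the median of the females was higher in Ube3a2X (473 CPM) than in WT (188 CPM) and that of the males higher in WT (181 CPM) than in Ube3a2X (155 CPM). None of the 16 pituitary genes tested and none of the 19 choroid plexus genes tested was called for genotype in Hypo (median log2 differences -0.21 and -0.15, beside -0.0043 over all genes). At an unadjusted p under 0.05 were 0 of the 16 pituitary genes, 5 of the 19 choroid plexus genes (Kcnj13, Clic6 and F5 negative, Otx2 and Enpp2 positive) and 3 of 7 meninges genes (Lum, Ogn and Slc6a13, all negative, median of the list -0.32), beside 5.4% of all genes. In PFC none of 3 pituitary and 13 choroid plexus genes tested was called (medians 0.16 and -0.05, beside 0.0053 over all genes). At an unadjusted p under 0.05 were 0 of the 13 and 1 of the 3, Pomc at -0.61 (edgeR adjusted p = 0.403), beside 11.8% of all genes.

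By Pearson r on log2 CPM, and leaving out nothing but low genes, the genes most like Prl over the 18 Hypo libraries were Ap3s1 (0.870), Tmem183a (0.856) and Arxes2 (0.848), with Pou1f1 in sixth place (0.843). Those most like Ttr in Hypo were Fat2 (0.771), 9330162012Rik (0.736) and Slc17a7 (0.731), the vesicular glutamate transporter of cortex and thalamus. Over the 20 PFC libraries the genes most like Prl were Gzmk (0.810) and Gm5820 (0.762), and those most like Ttr were Dcakd (0.723) and Ext2 (0.714). These values are the highest of 21980 genes in Hypo and 20359 in PFC and are a description only.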

How the data were processed

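RNA was sequenced from PFC and Hypo of Ube3a2X and WT mice of both sexes, 1 library per mouse and tissue, prepared with a stranded mRNA kit. The authors aligned reads to GRCm38 (mm10) with STAR and deposited raw counts per gene from featureCounts. No versions of these tools are given in the sources used here, and the RIN of each sample is a deposited score. For counting, the paper names a different Gencode release than GENCODE vM21, which gave exon lengths and overlaps here. Of the 54165 genes, 53905 were in vM21. Each tissue was fitted with edgeR 4.0.16 (trimmed mean of M values, quasi-likelihood test, Benjamini-Hochberg adjustment) on the 4 sex and genotype groups, RIN and 2 surrogate variables (sva 3.50.0), after keeping genes with at least 10 reads in 4 libraries. The study's filter was rebuilt here, dropping genes under 100 reads in 2 or more libraries and then the lowest 15% by variance. As rebuilt it kept 10900 genes in PFC and 11869 in Hypo, fewer than the paper reports, so it was not identical. It kept no member in PFC and 3 in Hypo, so the lighter one was used. The tissue test took all 38 libraries in 8 groups with RIN. Levels of members were compared by exact permutation of genotype within sex on log2 CPM (2 reads added, smallest p 1.57e-05 in PFC and 6.3e-05 in Hypo). RPKM used the union of GENCODE vM21 exons. Correlations were taken on log2 CPM with 100000 permutations, or all pairings under 9 libraries. Alternatives were RIN alone, DESeq2 1.42.0, limma-voom (limma 3.58.1), other filters and factors, and leaving out each library.

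The genes named were the 9 members, called list genes, and the genes most like Ttr and Prl. The members and lists were chosen with earlier results of these data known. The 2 tissues of a mouse were not paired by deviation, with correlations of -0.357 to 0.290 (median 0.0052) over 13 mice, but they come from the same animal, which was the block in an alternative tissue fit. The 72 pairs of libraries within groups differed by 11.1 to 500 times the squared sampling noise, so none was a copy of another. The Hypo fit was tested on simulated counts first, for its genotype contrast only. Floors cover counting error only, while confidence intervals of log2 differences come from the edgeR fits and include the spread between libraries.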

Additional observations from a re-analysis of the deposited data

Results flagged for a closer look

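Groups of 4 or 5 libraries were searched for a single library far from the rest, by the gap to its nearest neighbour over the whole range of the group (log2 CPM or log2 ratio). Of 76 group tests, 9 met the limit, and chance alone gives about 1 in 20, or 3.8. Of these, 7 were in PFC. Ube3a2X male 258 was the highest of its group for Kl (0.736), Tshb (1) and Pou1f1 (0.739), with 151, 4 and 6 reads. WT male 251 was the lowest of its group for Kl (0.720), and it also had the lowest meninges sum in PFC, 9.96 CPM. Ube3a2X male 238 was the highest of its group for Folr1 (0.745), WT male 245 for Prl (1, from a single read) and WT female 397 for Tshb (0.799, from 6 reads).

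The other 2 were the ratio of Prl to Gh in Hypo WT male 423 (0.949) and Hypo Ube3a2X male 238 (0.840), the 2 male libraries with 1 and 0 Gh reads. Their ratios of 116 and 23.0 compare with 0.247 to 0.511 in the other 7 males. The cause of these values was not tested.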

How the results depend on the processing

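Of 220 alternatives other than leaving out a library, 199 kept direction and side of the threshold (a count of called members: stayed within 1.5 times), 5 lost and 3 gained a call, 10 changed sign and 3 moved a count by more. RIN alone changed sign for the Hypo genotype differences of Gh (-1.29), Prl (-1.63) and Pou1f1 (-0.75), limma-voom for Pou1f1 (-0.29) and DESeq2 for Tshb (0.0262), none of them called. In the permutation of genotype, linear CPM in place of log2 CPM turned 3 signs. These were Kl (from 0.0039 to -0.279) and Gh (from 0.736 to -152.9) in Hypo and Tshb in PFC (from -0.107 to 0.0087). The count of members called for sex was 0 in PFC with RIN alone and with limma-voom, and 0 in Hypo with RIN alone. Pou1f1 differed between tissues by 1.99 with the mouse as replicate block and by 3.44 without RIN. Called genes numbered 14285 in 38 libraries, 10967 in the 26 of mice with both tissues and 7704 in these 26 with the replicate block, whose other changes of call are given above. The cause of these changes was not tested.

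Over all genes, genotype calls in PFC rose from 2 to 4 (RIN alone), 180 (DESeq2) and 527 (limma-voom), and in Hypo from 1 to 6 and 5 (DESeq2, limma-voom). Sex calls went from 28 to 17, 74 and 10 in PFC (RIN alone, DESeq2, the study's filter) and from 304 to 39 and 731 in Hypo (RIN alone, DESeq2), and interaction calls from 0 to 752 in PFC (DESeq2) and to 8, 4 and 1 in Hypo (DESeq2, limma-voom, no filter).

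Leaving out 1 library gave log2 genotype differences of -0.45 to 0.16 (Kcnj13) and -0.0200 to 0.15 (Kl) in PFC, and in Hypo of -1.01 to 0.33 (Ttr), -0.73 to 1.67 (Gh), -0.55 to 1.32 (Prl), -0.61 to 0.26 (Cga), -0.25 to 0.21 (Tshb) and -0.37 to 1.15 (Pou1f1). Members called for sex numbered 0 to 1 in each tissue, and for genotype by permutation 0 to 1. Pou1f1 between tissues ran from -0.78 to 0.39. Permutation levels ran in PFC from -0.36 to 0.10 (Kcnj13), -0.0408 to 0.19 (Kl), -0.28 to 0.0787 (Tshb) and -0.15 to 0.15 (Pou1f1), and in Hypo from -0.0767 to 0.0699 (Kl), -0.66 to 1.93 (Gh), -1.03 to 0.77 (Prl) and -0.55 to 0.53 (Pou1f1). The Prl to Gh ratio ran from -3.96 to -2.39 for sex and from -1.53 to 0.12 for genotype. In PFC, Gh, Cga, Tshb, Pou1f1 and Ttr had few reads a library and did not enter the edgeR fit.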

Other observations

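Genes of the ependyma, the ciliated lining of the ventricles, were not members but border the same space as the choroid plexus. All 6 genes of that list were called higher in Hypo than in PFC, as were 32.2% of all genes, but 2 of them, Ccdc153 and Tmem212 (17 and 1 reads over the 20 PFC libraries), passed the filter only through Hypo. None was called for genotype in Hypo, although each of the 6 had an unadjusted edgeR p under 0.05, beside 5.4% of all genes, with log2 differences between Ube3a2X and WT from -0.43 for Ccdc153 to -0.19 for Rarres2 (edgeR adjusted p = 0.661 for Ccdc153). Their sum was 63.4 to 136 CPM in WT females, 51.8 to 64.2 CPM in Ube3a2X females, 57.5 to 74.5 CPM in WT males and 41.0 to 57.0 CPM in Ube3a2X males of Hypo. Tmem212, 1 of the 6, was called lower in males than in females (fell by 0.43, edgeR adjusted p = 0.00724).

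The globin gene Hbb-bs was at 0.89 for males against females of Hypo on the log2 scale (edgeR adjusted p = 0.109), which was not called. Of 5 blood genes in Hypo, none was called for genotype and 3 were higher in Hypo than in PFC, as were 32.2% of all genes, and 4 of the 5 passed the filter in PFC. Of 7 meninges genes, 2 were higher and 3 lower in Hypo than in PFC, where 62.4% of all genes were called, and none was called for genotype in either tissue.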
